A study of Homo sapiens with 6 samples.

Results

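The genes described here were NF-kB transcription factors, their feedback inhibitors and the CXC chemokines that NF-kB switches on. The set was given by symbol as CXCL1, CXCL2, CXCL3, CXCL8, NFKB1, RELA, RELB, NFKBIA, TNFAIP3 and BIRC3, and its members were found by matching transcripts to GENCODE v29 gene symbols. Of these 10 genes, 9 had counts, among 18750 genes in all, and they held 68 of the 98886 transcripts listed. CXCL1 was not analysed here, since no transcript with counts matched its symbol.

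NF-kB is a dimer of Rel family proteins. In resting cells it is held in the cytoplasm by IkB proteins, and IkB kinases that act below cytokine and Toll-like receptors mark IkB for destruction, which frees the dimer to enter the nucleus. There it drives chemokines such as CXCL8, which attract neutrophils, and also its own brakes, NFKBIA and TNFAIP3. In colorectal cancer cells the CXC chemokines are known as signals to neutrophils and blood vessels.

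The study asked how silencing of the long non-coding RNA AC010789.1 alters messenger RNA levels in the human colorectal cancer line HCT116, an established line. Cells grown in DMEM with fetal bovine serum received, by Lipofectamine transfection, either an siRNA to AC010789.1 (si-AC010789.1) or a negative control siRNA (siRNA-NC). Each group had 3 libraries, paired-end TruSeq preparations of total RNA read on a NovaSeq. All libraries come from this single line and its siRNA transfection, and no untransfected cells were among them.

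Total counts ranged from 11277222 to 13443866 in a library, so 3 counts, the level taken as the floor, equalled 0.225 to 0.266 CPM (counts per 1e6 counts of a library, with library sizes scaled by TMM). Of the epithelial markers, KRT8 and KRT18 were abundant, EPCAM had 35 to 68 counts in a library and CDH17 had 0 to 2. No transcript with counts matched KRT19 or VIL1, so these were not analysed here. For the 4 epithelial markers with counts, siRNA-NC libraries had sums of 984 to 1227 CPM, and si-AC010789.1 libraries 800 to 1040 CPM. Nearly all of this came from KRT8 and KRT18. Control means were 718 CPM for KRT8, 395 CPM for KRT18 and 3.61 CPM for EPCAM. The si-AC010789.1 means were 533, 419 and 4.96 CPM in the same order. Leukocyte markers (2 of 6 with counts) summed to at most 1.60 CPM in any library and endothelial markers (2 of 4) to at most 2.51 CPM. Fibroblast markers (4 of 5) summed to 59.6 to 69.2 CPM in siRNA-NC cells and 63.8 to 68.6 CPM in si-AC010789.1 cells, so these sums overlapped between the groups. Most of each fibroblast sum was COL1A1, whose mean was 43.3 CPM for the controls and 44.4 CPM after silencing. COL1A1 thus lay above EPCAM in every library, and the reason was not tested. The level of AC010789.1 was not analysed here, so the silencing was not checked from these counts. In bulk RNA, fewer expressing cells and less RNA per cell cannot be told apart.

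Because the set is defined by a shared transcription factor, the NF-kB recognition sequences in the members' promoters are shown first. RefSeq promoter windows of GRCh38.p14, running from 250 bases before to 50 bases after each gene start, were searched on both strands for GGANTTTCC, the core of the classical NF-kB motif. In the 7 sequences below, written 5′ to 3′ on the strand of the gene, capitals mark the match nearest the gene start and lower case its flanks.
CXCL8: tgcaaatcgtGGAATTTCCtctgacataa
CXCL1: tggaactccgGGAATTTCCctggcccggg
CXCL2: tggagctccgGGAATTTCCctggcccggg
CXCL3: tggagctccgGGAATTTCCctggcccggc
NFKB1: gacgtcagtgGGAATTTCCagccaggaag
TNFAIP3: acgtgactttGGAAAGTCCcgtggaaatc
NFKBIA: tgactggcttGGAAATTCCccgagcctga

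The CXCL8 window lay at chr4:73740468-73740496 on the plus strand, with its match starting 91 bases before the gene start. The windows of CXCL1 (chr4:73869305-73869333, plus strand), CXCL3 (chr4:74038749-74038777, minus strand) and CXCL2 (chr4:74099254-74099282, minus strand) had their matches 78, 78 and 77 bases before the start. Those 3 chemokine genes lie close together on chromosome 4 and carried the match in nearly the same flanks. Over the 29 bases shown, CXCL1 and CXCL2 differed at 1 base, CXCL2 and CXCL3 at 1 base, and CXCL1 and CXCL3 at 2 bases. NFKB1 (chr4:102501301-102501329, plus strand) had the match 48 bases before its start. In TNFAIP3 (chr6:137867182-137867210, plus strand) and NFKBIA (chr14:35404812-35404840, minus strand) the motif read on the opposite strand, 67 and 81 bases before the start. NFKBIA held a further match 242 bases before its start. These distances count from the RefSeq gene starts, which for some genes differ from the GENCODE v29 bounds given below. By those bounds the matches of CXCL2, CXCL3 and TNFAIP3 lay inside the gene.

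The motif occurred in 7 of the 11 promoter windows of members, which belong to 9 genes, against 577 of 35116 promoter windows in all (1.64%). RELA and BIRC3 had no match in the window, and RELB had no window. Counted by gene, 7 of the 9 members with a window held a match. Among other pathway components 8 of 48 genes with a window did (16.7%), among other NF-kB target genes 5 of 34 (14.7%), and among other chemokines and chemokine receptors 4 of 25 (16.0%). The set was itself defined by NF-kB, so its share is no test. A match is a description of these letters and says nothing about binding.

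With edgeR's quasi-likelihood test and Benjamini-Hochberg adjustment over 13750 genes, none of the 8 members tested had an adjusted p-value under 0.05 (0 of 8), whereas 0.982% of all genes did (0.284% higher and 0.698% lower in si-AC010789.1 cells). At an unadjusted p-value under 0.05, 3 members were lower, NFKB1, RELA and TNFAIP3, and 0 were higher. Over all genes 17.2% passed that threshold, 8.92% lower and 8.25% higher. No member had an absolute log2 fold change over 1 together with an unadjusted p-value under 0.05, the criteria of the study's methods, which 0.778% of genes passed. CXCL3 fell under the filter on low counts and was not tested. DESeq2 called 1 member, RELA, beside 5.06% of the genes to which it gave an adjusted p-value. It gave none to CXCL2, CXCL8 and RELB, so it could not call them.

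The 3 values of each group did not overlap in 3 of the 8 members tested, again NFKB1, RELA and TNFAIP3, all lower in si-AC010789.1 cells. Across all genes 25.1% had groups that did not overlap (12.9% of all genes lower and 12.2% higher). Each of the 3 separations ended when a single transcript was left out of the sum: ENST00000510638 for NFKB1, any of 3 transcripts for RELA and any of 3 for TNFAIP3. Those of TNFAIP3 include ENST00000615468, which held 44.3% to 63.4% of its counts. How many other separated genes lose their separation when 1 transcript is left out was not counted. The median log2 fold change of the 8 members (si-AC010789.1 against siRNA-NC in every fold change given here) was −0.16, beside −0.00066 for all genes tested. With 3 libraries against 3, the smallest exact two-sided permutation p-value is 0.1, so no single gene could reach 0.05 by that test.

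**Figure D1:**
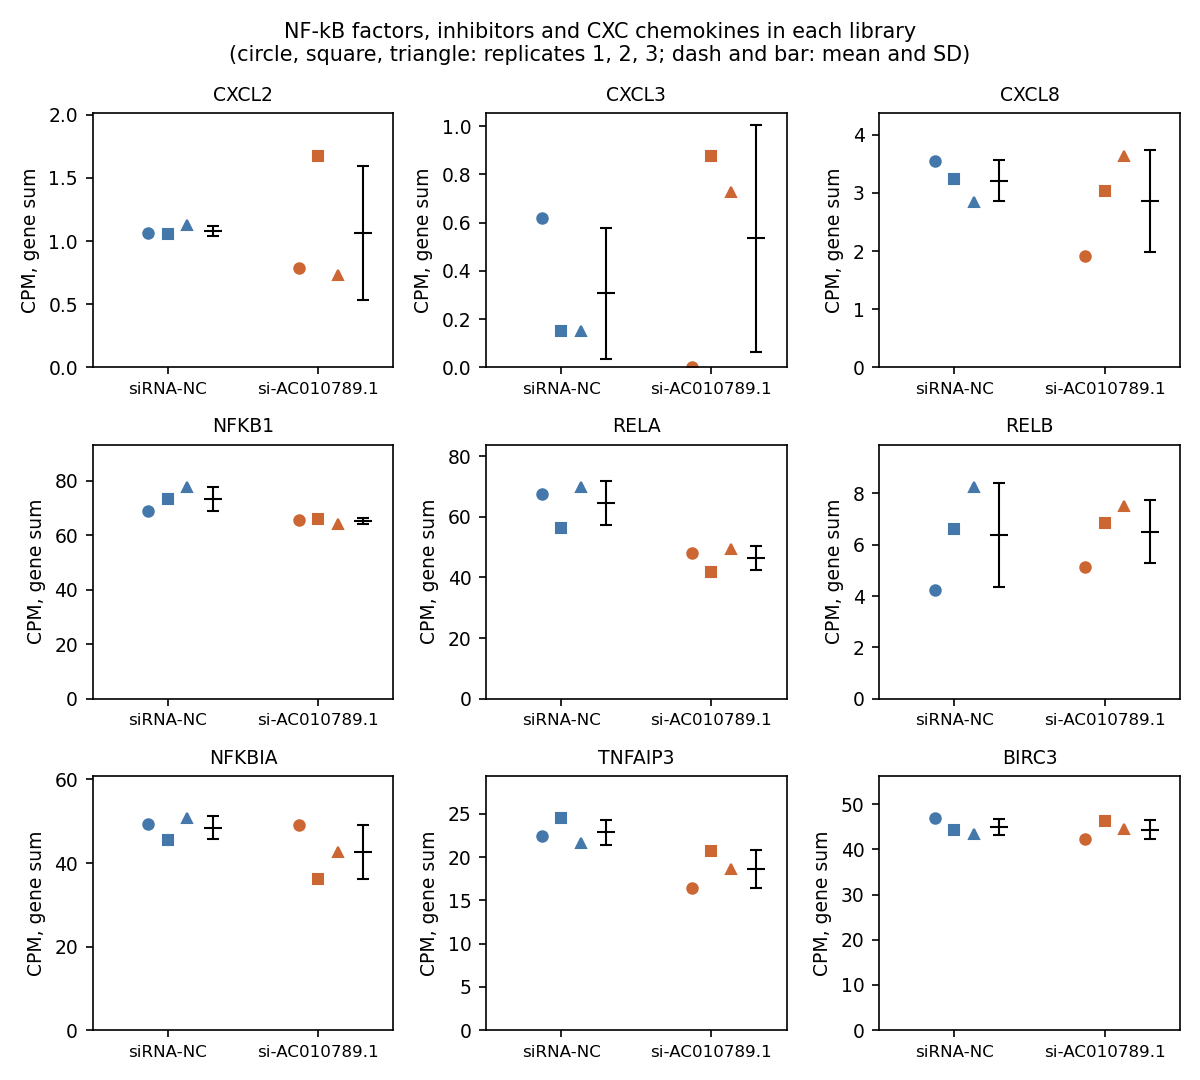
CPM of the 9 members with counts in each library, summed over the transcripts of a gene, with siRNA-NC in blue and si-AC010789.1 in orange. Circles, squares and triangles are replicates 1, 2 and 3, and the dash with its bar is the mean and SD. RELA, NFKB1 and TNFAIP3 show groups that do not overlap as sums of all transcripts, and the other 6 genes overlap.

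**Figure D2:**
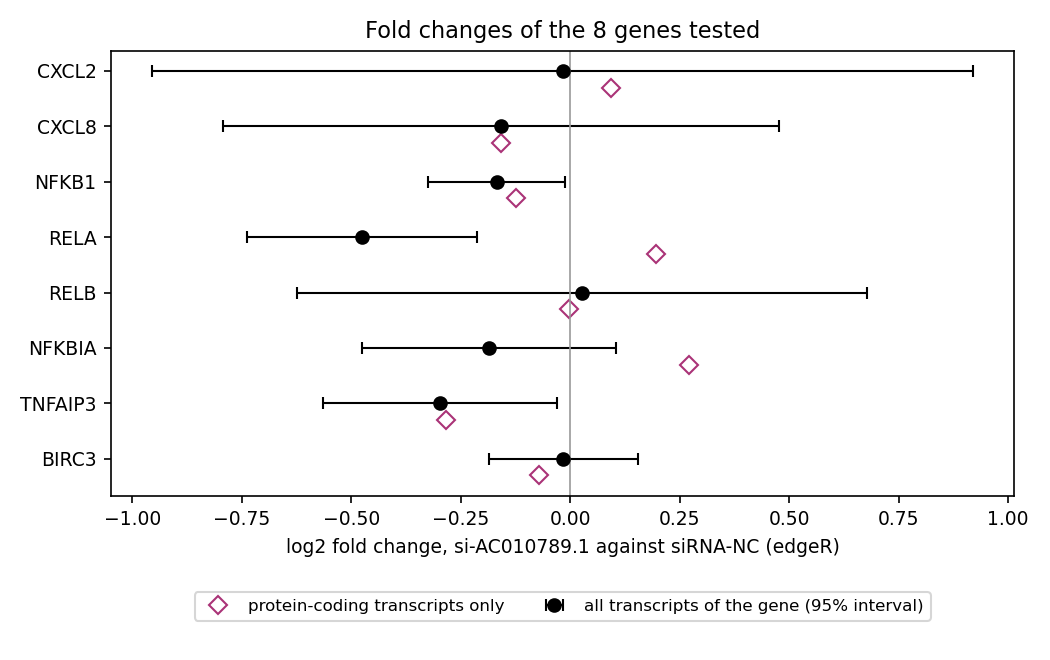
Log2 fold changes of the 8 members tested (horizontal axis) with 95% intervals from edgeR, and open diamonds for sums over protein-coding transcripts alone. RELA and NFKBIA lie below 0 as sums of all transcripts and above 0 as sums of protein-coding transcripts.

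The CXC chemokines had at most 45 counts in any library, and neither of the 2 tested differed between the groups beyond the spread of the libraries. CXCL8 (ENSG00000169429.10, GRCh38 chr4:73740506-73743716, plus strand), the neutrophil attractant interleukin-8, had 40, 43 and 38 counts in siRNA-NC cells and 22, 38 and 45 in si-AC010789.1 cells. Its lowest and its highest CPM (1.92 and 3.64) both came from si-AC010789.1 libraries, so the groups overlapped. The mean was 3.21 ± 0.348 CPM (SD, n = 3) in siRNA-NC cells and 2.86 ± 0.873 CPM (SD, n = 3) in si-AC010789.1 cells. The log2 fold change was −0.16 with a standard error of 0.26, an edgeR adjusted p-value of 0.809 and a 95% interval from −0.79 to 0.48. The interval allowed no change of CXCL8 as well as a fall or a rise within these bounds.

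CXCL2 (ENSG00000081041.8, chr4:74097035-74099293, minus strand), another ligand of the neutrophil receptor CXCR2, had 12, 14 and 15 counts in siRNA-NC cells and 9, 21 and 9 in si-AC010789.1 cells. The siRNA-NC libraries lay close together, while the second si-AC010789.1 replicate had over 2 times the counts of the other two. Means were 1.08 ± 0.0381 and 1.06 ± 0.532 CPM (SD, n = 3 each), with a log2 fold change of −0.017, a standard error of 0.39 and an edgeR adjusted p-value of 0.986. The 95% interval, from −0.96 to 0.92, allowed nearly a doubling or a halving. CXCL3 (ENSG00000163734.4, chr4:74036589-74038807, minus strand), also a ligand of this group, had 7, 2 and 2 counts in siRNA-NC cells and 0, 11 and 9 in si-AC010789.1 cells. Of its 6 libraries, 3 were at or below the floor of 3 counts, and the exact two-sided permutation p-value was 0.6.

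Reads of these chemokines can be hard to place. Of the 50-base words in annotated CXCL2 transcripts, 12.5% also occurred in CXCL3 or CXCL1, and 6.01% of CXCL3 words occurred in the other two. How reads that fit more than 1 gene were counted is not given in the sources used here. CXCL8 shared no 50-base word with another gene.

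The Rel factors RELA and NFKB1 were sampled more deeply than the chemokines, with at least 524 counts in every library. RELA (ENSG00000173039.18, chr11:65653596-65663094, minus strand), which encodes the p65 subunit that activates transcription, had 67.6, 56.3 and 69.8 CPM in siRNA-NC cells and 47.9, 41.8 and 49.5 CPM in si-AC010789.1 cells. All 3 si-AC010789.1 libraries lay below the lowest control. Means were 64.6 ± 7.26 and 46.4 ± 4.06 CPM (SD, n = 3 each), a ratio of 0.719. On the log2 scale the difference was −0.48 with a standard error of 0.11, an unadjusted p-value of 0.00395 and an adjusted p-value of 0.109 in edgeR. DESeq2 gave RELA an adjusted p-value of 0.0157, under the threshold that 5.06% of the genes with an adjusted value passed in that tool. Over the other alternatives its adjusted p-value ran from 0.111 to 0.892. The sign of this difference turned when a single transcript, RELA-217, was left out of the sum, as described with the transcripts. Control replicate 2 had only 7 counts of RELA-217, yet its RELA sum of 56.3 CPM still lay above every si-AC010789.1 library. Whether reads counted to RELA-217 came from other RELA transcripts was not tested.

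NFKB1 (ENSG00000109320.11, chr4:102501329-102617302, plus strand), which encodes the precursor of the p50 subunit, had 68.9, 73.4 and 77.7 CPM in siRNA-NC cells and 65.7, 66.1 and 64.1 CPM in si-AC010789.1 cells. The groups were separated by a small gap, and the si-AC010789.1 libraries lay closer together than the controls. Means were 73.3 ± 4.42 and 65.3 ± 1.07 CPM (SD, n = 3 each). The log2 fold change of −0.17 had a standard error of 0.065, an unadjusted p-value of 0.0381 and an edgeR adjusted p-value of 0.259. The separation rested on 1 transcript of NFKB1, ENST00000510638, which had 55 counts in control replicate 1 and 0 in every other library. Summed without it, a choice made after its values were seen, NFKB1 had 64.0 CPM in control replicate 1, which fell below all 3 si-AC010789.1 libraries. The groups then overlapped, with a log2 fold change of −0.14 (standard error 0.083, edgeR adjusted p-value 0.456). Protein-coding transcripts of NFKB1 alone gave −0.12 (unadjusted p-value 0.193), also with overlap.

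RELB (ENSG00000104856.13, chr19:45001430-45038198, plus strand), the Rel subunit of the non-canonical pathway, had the lowest level of the 3 factors per length (given with the order of levels). It had 48, 88 and 110 counts in siRNA-NC cells and 59, 86 and 93 in si-AC010789.1 cells, which overlapped fully. Means were 6.37 ± 2.01 and 6.51 ± 1.23 CPM (SD, n = 3 each), with a log2 fold change of 0.027, a 95% interval from −0.62 to 0.68 and an edgeR adjusted p-value of 0.971.

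Of the feedback inhibitors, TNFAIP3 (ENSG00000118503.14, chr6:137867188-137883312, plus strand), which encodes A20, an enzyme that edits ubiquitin chains to end NF-kB signalling, had 22.5, 24.5 and 21.7 CPM in siRNA-NC cells. In si-AC010789.1 it had 16.4, 20.7 and 18.7 CPM, each below the lowest control. Means were 22.9 ± 1.45 and 18.6 ± 2.17 CPM (SD, n = 3 each). The log2 fold change of −0.30 had a standard error of 0.11, an unadjusted p-value of 0.0344 and an edgeR adjusted p-value of 0.250. An annotated gene on the other strand, AL357060.1, overlaps TNFAIP3, and AP001362.2 overlaps RELA in the same way. Whether the counting used strand is not given in the sources used here.

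NFKBIA (ENSG00000100906.10, chr14:35401511-35404749, minus strand), which encodes IkB alpha, had 49.2, 45.4 and 50.7 CPM in siRNA-NC cells and 49.0, 36.1 and 42.7 CPM in si-AC010789.1 cells. The first si-AC010789.1 library lay inside the control range and the other two below it. Means were 48.4 ± 2.71 and 42.6 ± 6.48 CPM (SD, n = 3 each), with a log2 fold change of −0.19, a standard error of 0.12 and an edgeR adjusted p-value of 0.491. The sum joined retained-intron transcripts that were lower and coding transcripts that were higher in si-AC010789.1 cells, as given with the transcripts.

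BIRC3 (ENSG00000023445.13, chr11:102317450-102339403, plus strand), which encodes the ubiquitin ligase cIAP2 of the TNF receptor complex and is itself an NF-kB target, had nearly the same level in both groups. It had 529, 589 and 579 counts in siRNA-NC cells and 484, 581 and 550 in si-AC010789.1 cells. Means were 44.9 ± 1.77 and 44.4 ± 2.07 CPM (SD, n = 3 each). On the log2 scale the difference was −0.016, with an edgeR adjusted p-value of 0.936 and a 95% interval from −0.19 to 0.15, so a change beyond about 0.2 on the log2 scale lay outside the interval.

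Single transcripts were far less even between replicates than the gene sums. The fitted biological coefficient of variation was 0.170 for genes and 0.698 for transcripts. Of the 68 member transcripts 26 passed the filter on low counts, and 18 of these 26 varied more than 2-fold within a group. None had an edgeR adjusted p-value under 0.05 (0 of 26, with 2 at an unadjusted p-value under 0.05), beside 0.0135% of the 44319 transcripts tested (5.73% at an unadjusted p-value under 0.05). The groups were separated in 3 of the 26, beside 14.0% of all transcripts tested. How reads that transcripts share were divided is not given in the sources used here.

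RELA-217 (ENST00000531484, chr11:65653967-65662915), annotated as a retained intron, had 481, 7 and 452 counts in siRNA-NC cells and 0, 3 and 9 in si-AC010789.1 cells. It made up 63.0% and 48.5% of all RELA counts in control replicates 1 and 3 and 0.937% in control replicate 2, so the control group itself was split. This transcript did not pass the filter, and its exact two-sided permutation p-value was 0.2. Summed without it, RELA had 283, 740 and 479 counts in siRNA-NC cells and 549, 521 and 603 in si-AC010789.1 cells. The groups then overlapped, with means of 38.9 ± 15.6 and 46.1 ± 3.93 CPM (SD, n = 3 each) and a log2 fold change of 0.24 (standard error 0.27, edgeR adjusted p-value 0.706). Leaving out this transcript was chosen after its values were seen.

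The coding transcripts of RELA were uneven as well. RELA-201 (ENST00000308639) had 0, 311 and 80 counts in siRNA-NC cells and 10, 227 and 264 in si-AC010789.1 cells, and RELA-202 (ENST00000406246) had 106, 26 and 5 against 211, 53 and 22. Within each group the library high in RELA-202 was the library lowest in RELA-201. RELA-205 (ENST00000525693) had 36, 187 and 67 counts in siRNA-NC cells and 25, 54 and 177 in si-AC010789.1 cells. RELA-204 (ENST00000525658), a candidate for nonsense-mediated decay, had 164 counts in control replicate 3, 115 in si-AC010789.1 replicate 1 and 0 in each of the other libraries.

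RELA-223 (ENST00000534283, chr11:65661943-65662780) was the RELA transcript whose groups were separated. It had 49, 82 and 41 counts in siRNA-NC cells and 31, 24 and 22 in si-AC010789.1 cells, with a log2 fold change of −1.10, a standard error of 0.39 and an edgeR adjusted p-value of 0.820. Together the protein-coding transcripts of RELA held 26.1%, 89.2% and 21.9% of its counts in siRNA-NC cells and 53.0%, 70.0% and 80.6% in si-AC010789.1 cells, which overlapped.

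**Figure D3:**
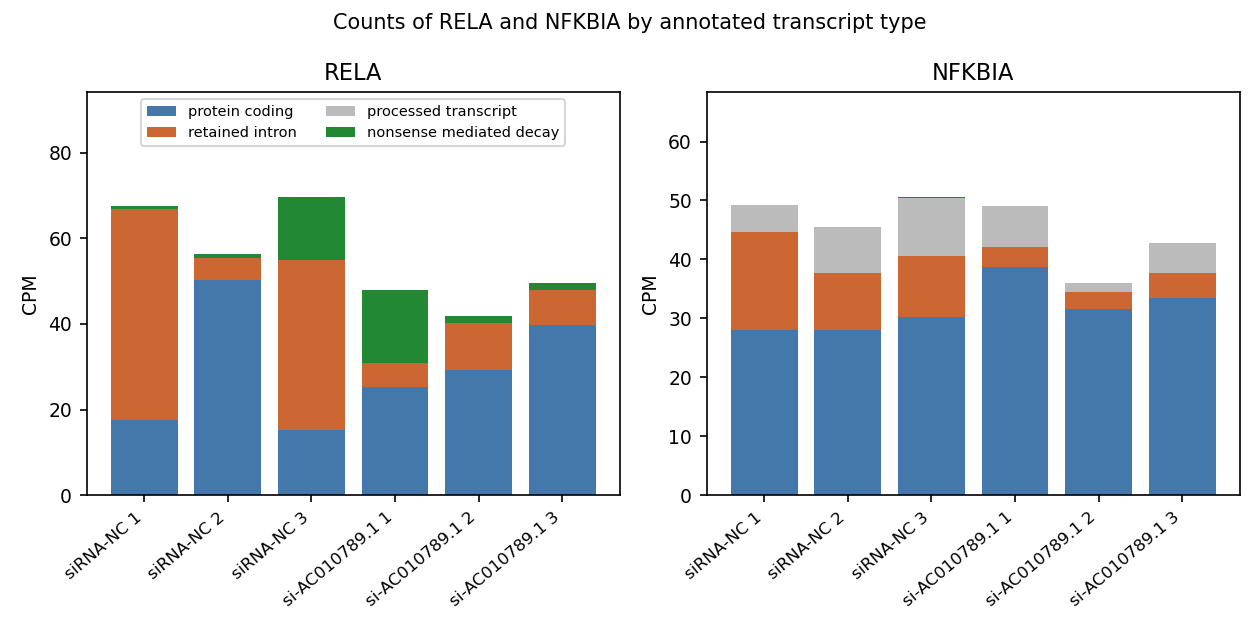
Stacked bars of RELA and NFKBIA CPM in each library (vertical axis, from 0) by annotated transcript type. Retained-intron transcripts fill most of the RELA bar in siRNA-NC replicates 1 and 3 but not 2, and take a larger part of the NFKBIA bar in each siRNA-NC library than in any si-AC010789.1 library.

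NFKBIA showed the more even pattern. NFKBIA-204 (ENST00000555371, chr14:35401926-35403238), a retained-intron transcript, had 157, 101 and 105 counts in siRNA-NC cells and 12, 13 and 40 in si-AC010789.1 cells. The highest si-AC010789.1 library, with 40 counts, lay well below the lowest control, with 101. Its log2 fold change was −2.46 with a standard error of 0.60, an unadjusted p-value of 0.00761 and an edgeR adjusted p-value of 0.578, while DESeq2 gave an adjusted p-value of 0.0116, under the threshold that 1.54% of the transcripts with an adjusted value passed in that tool. All retained-intron transcripts of NFKBIA summed to 189, 127 and 137 counts in siRNA-NC cells and 39, 37 and 53 in si-AC010789.1 cells.

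The protein-coding transcripts of NFKBIA, in contrast, were higher in each si-AC010789.1 library than in any control. They had 28.0, 28.1 and 30.3 CPM in siRNA-NC cells and 38.7, 31.5 and 33.5 CPM in si-AC010789.1 cells, and the exact two-sided permutation p-value was 0.1. As a sum tested with edgeR, their log2 fold change was 0.27 with a standard error of 0.10, an unadjusted p-value of 0.0408 and an adjusted p-value of 0.317. The coding share of NFKBIA counts ran from 56.8% to 61.9% in siRNA-NC cells and from 78.4% to 87.4% in si-AC010789.1 cells. Among the 4290 genes with a mean of 1 CPM or more in both types, 4.22% had a separated, lower retained-intron sum and 11.0% a separated, higher coding sum, and 0.886% had both, as NFKBIA did. This pattern was taken from NFKBIA after its values were seen, so these shares describe the background and are no test. Over all genes the retained-intron share differed little between libraries, from 5.86% to 6.30% of counts.

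Within the coding transcripts of NFKBIA the counts were divided unevenly. NFKBIA-209 (ENST00000557389) had 313, 317 and 359 counts in siRNA-NC cells and 415, 359 and 182 in si-AC010789.1 cells. NFKBIA-201 (ENST00000216797) had at most 3 counts in siRNA-NC cells and 2, 19 and 187 in si-AC010789.1 cells. The si-AC010789.1 library with the fewest counts of NFKBIA-209 was the library with the most of NFKBIA-201. Summed without NFKBIA-204, a choice made after its values were seen, NFKBIA had a log2 fold change of 0.078 (standard error 0.14, edgeR adjusted p-value 0.818).

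**Figure D4:**
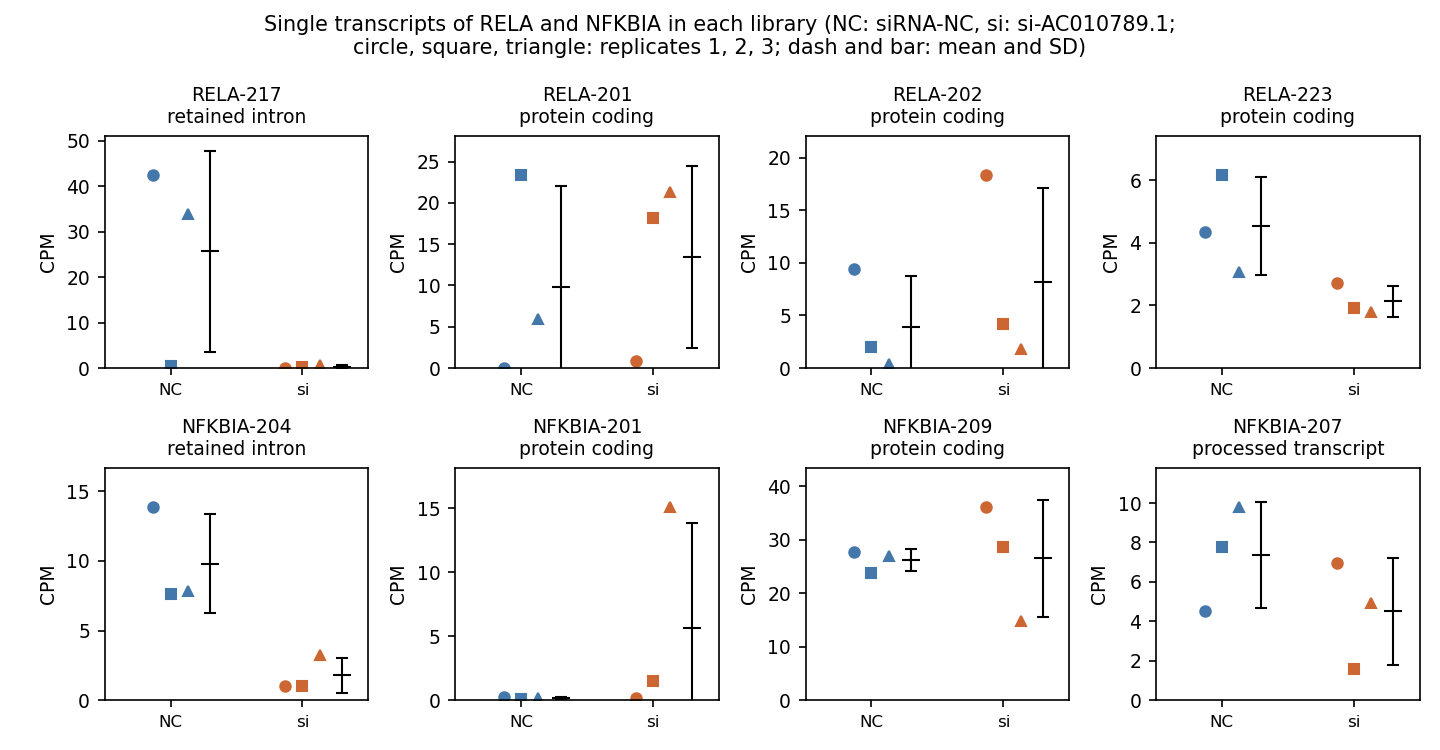
CPM of 8 transcripts of RELA and NFKBIA in each library, with replicates 1, 2 and 3 as circles, squares and triangles and the mean with its SD beside them (bars are drawn down to 0 only). NFKBIA-204 and RELA-223 separate the groups, whereas RELA-217 is high in 2 of the 3 siRNA-NC libraries.

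The other members rested mostly on 1 transcript or on few counts. The transcript ENST00000394820 held 85.0% to 90.3% of NFKB1 counts in every library, with 661, 876 and 936 counts in siRNA-NC cells and 674, 740 and 714 in si-AC010789.1 cells. The transcript ENST00000263464 held 90.7% to 98.3% of BIRC3. The processed transcript of BIRC3, ENST00000526421, had 13, 25 and 5 counts in siRNA-NC cells and 31, 36 and 43 in si-AC010789.1 cells, separated and higher, with an edgeR adjusted p-value of 0.888; it was named after its values were seen. ENST00000307407 held 89.5% to 95.0% of CXCL8, and ENST00000508487 held 64.3% or more of CXCL2, whose other main transcript, ENST00000296031, had at most 4 counts. The 4 transcripts of CXCL3 had at most 5 counts each in any library.

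TNFAIP3 and RELB were spread over more transcripts. ENST00000615468 led TNFAIP3 with 136, 206 and 128 counts in siRNA-NC cells and 112, 116 and 122 in si-AC010789.1 cells. ENST00000237289 (38, 48 and 13 against 8, 64 and 51 counts) and ENST00000620204 (33, 31 and 69 against 20, 43 and 36 counts) overlapped between the groups. RELB counts passed between transcripts from library to library: RELB-201 (ENST00000221452) had 43 counts in control replicate 1 and at most 6 elsewhere, while RELB-202 (ENST00000505236) had 0, 47 and 64 counts in siRNA-NC cells and 0, 57 and 0 in si-AC010789.1 cells. RELB-207 (ENST00000625761) had 0, 36 and 44 against 46, 25 and 84. The sum over RELB transcripts varied less than these parts.

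Levels can be compared between genes only per length, so each transcript's CPM was divided by its length in kilobases and summed. On this scale of CPM per kilobase, the order of levels in siRNA-NC cells was NFKBIA (46.0 ± 3.72), RELA (43.6 ± 6.67), NFKB1 (23.1 ± 2.73), BIRC3 (10.4 ± 1.29) and TNFAIP3 (8.55 ± 0.521; SD, n = 3 for each). RELB (3.13 ± 0.708), CXCL8 (2.08 ± 0.231), CXCL2 (1.09 ± 0.192) and CXCL3 (0.234 ± 0.247) followed (SD, n = 3 for each). NFKBIA and RELA overlapped, as did BIRC3 and TNFAIP3, and the other neighbours in the order did not overlap.

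In si-AC010789.1 the same scale gave NFKBIA 33.6 ± 5.84, RELA 32.5 ± 7.24, NFKB1 18.5 ± 0.198, BIRC3 12.9 ± 0.781 and TNFAIP3 6.54 ± 1.22 CPM per kilobase (SD, n = 3 for each). The groups were separated for NFKBIA, NFKB1 and TNFAIP3, lower in si-AC010789.1 cells, and for BIRC3, higher, each with an exact two-sided permutation p-value of 0.1. Of all genes tested, 10.8% were separated and lower and 10.4% separated and higher on this scale. Without ENST00000510638 NFKB1 had 18.3, 20.7 and 22.5 CPM per kilobase in siRNA-NC cells and overlapped with si-AC010789.1 cells. The NFKBIA and BIRC3 sums also held short non-coding transcripts with separated groups. These were NFKBIA-204 (690 bases, lower in si-AC010789.1 cells) and ENST00000526421 of BIRC3 (624 bases, higher). In plain CPM the coding transcripts of NFKBIA were higher in si-AC010789.1 cells, and those of BIRC3 overlapped. Levels per kilobase without these transcripts were not computed. RELA per kilobase overlapped between the groups (exact permutation p-value 0.2). Which genes separated the groups thus differed between this scale, which weighs short transcripts more, and the plain sums.

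The rest of the pathway was read from hand-written lists. Of 52 further NF-kB pathway components tested, 26 lay above 0 and 26 below on the log2 scale (median −0.0049), with 0 adjusted p-values under 0.05 in edgeR and 0 in DESeq2. At an unadjusted p-value under 0.05 there were 5 higher and 1 lower, beside 8.25% higher and 8.92% lower of all genes. Separated groups occurred in 25.0%, beside 25.1% of all genes. The 5 genes for IkB kinase subunits and related kinases (CHUK, IKBKB, IKBKG, TBK1 and IKBKE) had log2 fold changes between −0.046 and 0.12. The remaining Rel factors, NFKB2 (90.9 ± 3.28 and 87.6 ± 5.39 CPM; SD, n = 3 each) and REL (32.7 ± 9.27 and 34.4 ± 17.4 CPM; SD, n = 3 each), overlapped between the groups.

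Upstream adaptors and receptors held the components with the smallest p-values. TRAF2, an adaptor of TNF receptors, had 102 ± 5.15 CPM in siRNA-NC cells and 120 ± 5.50 CPM in si-AC010789.1 cells (SD, n = 3 each), separated, with a log2 fold change of 0.24 and an edgeR adjusted p-value of 0.134. IRAK1, a kinase below interleukin-1 and Toll-like receptors, had 182 ± 7.84 and 207 ± 11.9 CPM (SD, n = 3 each; log2 fold change 0.18, edgeR adjusted p-value 0.198). TNFRSF12A, the receptor of the cytokine TWEAK, had 68.0 ± 4.62 and 90.1 ± 13.5 CPM (SD, n = 3 each; log2 fold change 0.41, edgeR adjusted p-value 0.172). TNFRSF10A, TAB2 (both higher) and MALT1 (lower) were the other 3 at an unadjusted p-value under 0.05, named after their values were seen. The most abundant negative regulators, TAX1BP1 and OTULIN, had log2 fold changes of 0.054 and −0.014 (edgeR adjusted p-values 0.713 and 0.925).

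Among 29 other NF-kB target genes tested, 11 lay above 0 and 18 below on the log2 scale (median −0.070), with 0 adjusted p-values under 0.05 in edgeR and 1 in DESeq2. All 5 with an unadjusted p-value under 0.05 were lower, beside 8.92% lower and 8.25% higher of all genes. CD83, a surface protein of activated immune cells, had 773, 972 and 836 counts in siRNA-NC cells and 585, 674 and 625 in si-AC010789.1 cells, a separation with no overlap. Its means were 68.1 ± 5.29 and 51.8 ± 1.74 CPM (SD, n = 3 each), with a log2 fold change of −0.39, a standard error of 0.077 and an adjusted p-value of 0.0810 in edgeR and 0.00778 in DESeq2. TRAF1, an adaptor induced by NF-kB, had 21, 19 and 30 counts against 11, 8 and 6 (log2 fold change −1.41, standard error 0.35, edgeR adjusted p-value 0.123).

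TNFAIP2 had 127 ± 18.5 and 103 ± 9.11 CPM (SD, n = 3 each; log2 fold change −0.30, edgeR adjusted p-value 0.265). IL6, the inflammatory cytokine interleukin-6, had 21, 20 and 16 counts in siRNA-NC cells and 0, 6 and 3 in si-AC010789.1 cells (log2 fold change −2.57, standard error 0.67, edgeR adjusted p-value 0.135), and IRF1, an interferon-response factor, had a log2 fold change of −0.30 (edgeR adjusted p-value 0.186). IL6 and IRF1 were named after their values were seen, and 2 of the 3 si-AC010789.1 libraries lay at or below the floor for IL6. The abundant targets CD44 and JUNB had log2 fold changes of −0.061 and −0.15 (edgeR adjusted p-values 0.734 and 0.363). Separated groups occurred in 5 of the 29 target genes (17.2%), all lower, beside 12.9% lower and 12.2% higher of all genes.

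Other chemokines and their receptors were mostly at the limit of detection, with 13 of 34 counted and 5 tested, and 0 had an adjusted p-value under 0.05 in edgeR or DESeq2. DESeq2 left some tested genes without an adjusted p-value, and how many of these 5 had one was not counted. CXCL16, a transmembrane CXC ligand, was the 1 with an unadjusted p-value under 0.05, beside 17.2% of all genes. It had 85, 76 and 78 counts in siRNA-NC cells and 98, 111 and 96 in si-AC010789.1 cells. All si-AC010789.1 libraries lay above the controls, with 6.37 ± 1.01 and 8.39 ± 0.563 CPM (SD, n = 3 each), a log2 fold change of 0.40, an unadjusted p-value of 0.0368 and an edgeR adjusted p-value of 0.255. CXCR4, the receptor of CXCL12, and ACKR3, its scavenging receptor, had log2 fold changes of 0.086 and −0.14 (edgeR adjusted p-values 0.538 and 0.809). CXCR1 and CXCR2, the receptors of CXCL8, were not analysed here.

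**Figure D5:**
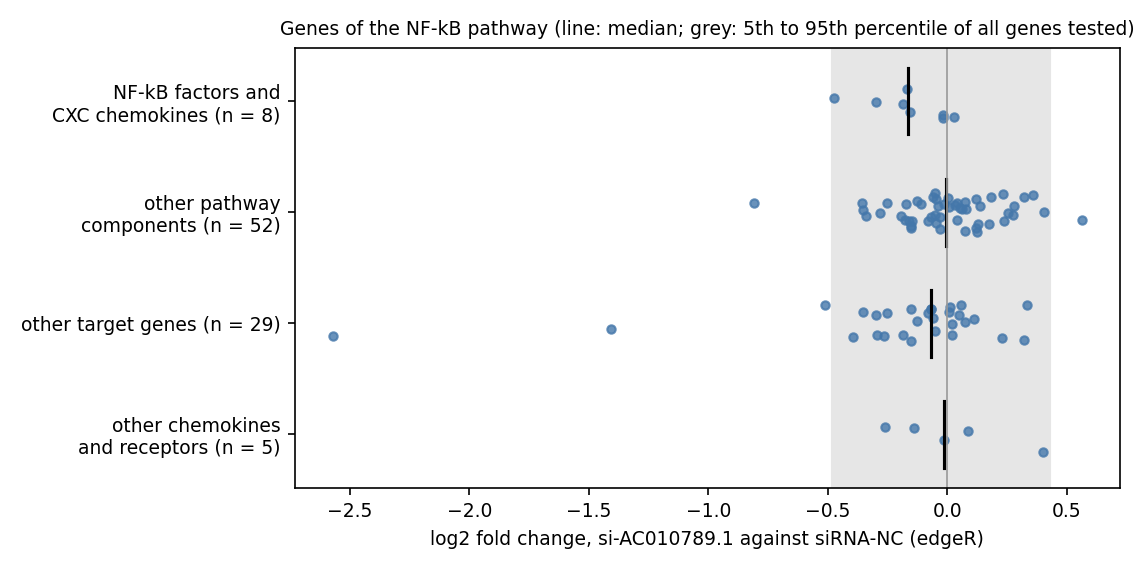
Log2 fold changes (horizontal axis, 1 point per gene tested) of the 8 members, 52 other pathway components, 29 other target genes and 5 other chemokines and receptors, with a line at each median and grey for the 5th to 95th percentile of all genes, −0.48 to 0.43. The medians are −0.16, −0.0049, −0.070 and −0.012, and IL6 and TRAF1 are the points furthest to the left.

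The genes whose profile over the 6 libraries was most like that of a member were found by the root-mean-square difference of log2 CPM, each profile centred on its own mean. For CXCL8 these were SYNJ1 (0.0660), CASP8AP2 (0.0729) and DGCR6L (0.0809), against a median of 0.348 over all genes. For NFKB1 they were PGLS (0.0232), TP53BP1 (0.0262) and RACK1 (0.0274), against a median of 0.191. For NFKBIA they were RFXANK (0.0385), AC010468.1 (0.0426) and GSPT1 (0.0468), against a median of 0.238. All these profiles share the same 6 libraries, and the closest of 13750 genes is close by selection.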

How the data were processed

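The 6 libraries came from HCT116 cells given si-AC010789.1 or siRNA-NC, 3 of each, and were assigned to groups by their labels. The labels call the controls only control cells, and that these received siRNA-NC is taken from the paper. The authors deposited raw counts, 1 whole number for each Ensembl transcript in each library. The submitters' processing notes name CASAVA 1.8 and TopHat2 2.0.6. They list a mouse genome build beside GRCh38, with no role given for either. The counting program and its use of strand are not given in the sources used here. The study names Cuffdiff, which needs alignments and was not run.

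Of 98886 transcripts, 98782 were matched to GENCODE v29 (GRCh38; the authors' annotation may differ) and summed per gene; 104 were left out. Genes and transcripts were tested with edgeR 4.0.16 in R 4.3.3 (TMM scaling, filterByExpr at its minimum count of 10 and total of 15, quasi-likelihood test, Benjamini-Hochberg adjustment). Standard errors are the log2 fold change divided by the square root of F. Levels are given as CPM over library sizes scaled by TMM. The floor of 3 counts covers counting error only. The labels do not say that replicates were separate cultures, although the study speaks of biological repeats; p-values measure the spread between these libraries.

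The alternatives were DESeq2 1.42.0, RLE normalization, no filter, a mean of at least 1 CPM, the replicate number as a block, protein-coding transcripts only and leaving out each library. Leaving out single transcripts, and counting genes by separated retained-intron and coding sums, were added after the data were seen. Scripts were tested on simulated counts. The members and gene lists were chosen with earlier results of these data known. Named from the lists were the 3 genes with the highest mean CPM and the 2 with the smallest p-value; of transcripts, those with at least 20% of a gene's counts in a library, or with an unadjusted p-value under 0.05 and separated groups. Promoter sequences are those of RefSeq (GRCh38.p14).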

Additional observations from a re-analysis of the deposited data

How the results depend on the processing

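In the alternatives run for them, no member, pathway component, target gene, other chemokine or member transcript had an adjusted p-value under 0.05, except with DESeq2, which called 1 member (RELA, log2 fold change −0.47), 1 target gene (CD83) and 1 member transcript (NFKBIA-204). DESeq2 gave an adjusted p-value to 10278 genes. CXCL2, CXCL8 and RELB were not among them, and how many genes of each list were was not counted. Protein-coding transcripts only were summed for all genes and the members, and no list was counted from those sums. Over all genes the 135 calls became 520 with DESeq2, 69 with no filter, 56 with protein-coding transcripts only, and 12 to 37 when a library was left out, fewest without si-AC010789.1 replicate 3. With the replicate number as a block 0 genes were called. Deviations of same-numbered libraries had correlations of 0.0896, 0.00281 and 0.000333. The first was the highest of any pair, while siRNA-NC replicate 2 went best with si-AC010789.1 replicate 3 (0.0789). These low values did not settle whether the numbers pair the samples, and the main fit took them as unpaired. The paper proposes that cell generations differing between its repeats may account for the spread within groups. Whether same-numbered libraries shared a generation is not given in the sources used here.

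Summing protein-coding transcripts only turned the sign of the log2 fold change of RELA (0.20), NFKBIA (0.27), CXCL2 (0.093) and RELB (−0.0023), moved the median of the members to −0.037 and left 2 members with separated groups, NFKBIA higher and TNFAIP3 lower. Leaving out RELA-217 gave RELA 0.24 and leaving out NFKBIA-204 gave NFKBIA 0.078; with both left out 2 members, NFKB1 and TNFAIP3, had separated groups, and with ENST00000510638 of NFKB1 also left out 1 member did (TNFAIP3). When a library was left out, log2 fold changes ran from −0.51 (without si-AC010789.1 replicate 2) to 0.19 (without si-AC010789.1 replicate 3) for CXCL2, from −0.37 to 0.057 for CXCL8, from −0.046 to 0.018 for BIRC3 and from −0.19 to 0.25 for RELB. RELA stayed between −0.57 and −0.40 and TNFAIP3 between −0.38 and −0.21. NFKBIA ran from −0.30 (without si-AC010789.1 replicate 1) to −0.076 (without si-AC010789.1 replicate 2) and NFKB1 from −0.21 (without siRNA-NC replicate 1) to −0.13 (without siRNA-NC replicate 3). The median of the members ran from −0.19 to −0.078. With 2 libraries against 3, 3 to 4 members had separated groups, beside 34.0% to 35.6% of all genes. The cause of the differences between tools was not tested. CXCL2 and CXCL3 had at most 21 counts in a library.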
